A study of Homo sapiens with 8 samples.

Results

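The comparison asked whether interferon-gamma (IFN-γ) changed gene expression to the same extent in a cell line with an altered Mediator kinase module as in its parent. For each gene the response of a line was the log2 ratio of its level after treatment to its level without, and the difference of responses was the knock-in response minus the wild-type response. A value above 0 means a larger rise, or a smaller fall, in the knock-in line. All 8 of the 8 libraries enter this comparison. Of 40295 gene IDs in the table, 16519 passed a filter on low counts and were tested. The lines were HCT116, a human colorectal carcinoma line, and an HCT116 derivative made with CRISPR-Cas9 that carries the E33Q change in MED12. Each line was studied without treatment (0 h) and after 24 h with 5 ng/ml IFN-γ, with 2 biological replicates in each of the 4 groups, sequenced as total RNA depleted of rRNA. All groups share the HCT116 background and the same medium. The 4 groups hold no untreated 24 h samples, so the effect of IFN-γ and that of time in culture cannot be told apart. A response here covers both. How many clones the knock-in line stands for is not given in the sources used here, so the E33Q change and any other property of the derivative cannot be told apart.

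IFN-γ binds a receptor made of IFNGR1 and IFNGR2, whose kinases JAK1 and JAK2 phosphorylate transcription factors of the STAT family. Their dimers bind gamma-activated sites (GAS) and switch on a first set of genes that includes the transcription factor IRF1, which then acts with STAT proteins and IRF9 on interferon-stimulated response elements (ISRE) of antigen presentation and antiviral genes. Mediator carries signals from such factors to RNA polymerase II. Its kinase module holds MED12, MED13 or MED13L, cyclin C and CDK8 or CDK19; MED12 activates the kinase.

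The libraries held 20901700 to 28045700 estimated counts. Levels are given in CPM, each count set against its library's total, with libraries scaled by TMM, a trimmed mean of log ratios. The summed level of 11 colon epithelial markers lay between 2384 and 5303 CPM and was higher after treatment in both lines. KRT8 held the largest part of it, and CDH17 and CLDN3 stayed at 1.72 CPM or less. EPCAM, another of these markers, lay between 115 and 217 CPM and was lowest in the treated knock-in libraries. The summed level of 8 fibroblast and endothelial markers lay between 4.66 and 9.69 CPM. Summed plasma cell markers, however, reached 353 and 399 CPM in the untreated wild-type libraries and 349 and 277 CPM in the untreated and the treated knock-in library numbered 2, against 2.4 to 4.0 CPM in the other 4. Summed leukocyte markers were also highest in these libraries, at 40.8, 52.3, 50.5 and 47.7 CPM in the same order, against 3.71 to 13.7 CPM in the others. Both untreated wild-type libraries carried this signal and both treated ones lacked it, so in that line it cannot be told apart from treatment. In bulk RNA fewer cells of a type and less RNA per cell cannot be told apart either. Untreated wild-type library 1 differed from its replicate in base composition: the mean transcript GC content of its counts was 47.4%, against 46.2% in library 2, 46.0 and 46.1% in the untreated knock-in libraries and 48.7 to 48.8% in the treated ones.

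No gene had a difference of responses that passed the test. With edgeR's quasi-likelihood test and Benjamini-Hochberg adjustment over all tested genes, 0 of 16519 genes (0%) were called at an adjusted p under 0.05, and the smallest adjusted p was 0.311. At an unadjusted p under 0.05 there were 1119 genes (6.77%), 586 with a higher (3.55%) and 533 with a lower (3.23%) knock-in response. DESeq2 called 4 genes and limma-voom 0, while edgeR without the filter on low counts called 267, with a spread shared almost fully across genes. With the replicate number as a block within each line edgeR called 27. Of these, 20 were over 3 times higher in each library with the plasma cell signal than in any without. The main fit, with the filter and without a block, called 6256 genes (37.9%) in the wild-type and 8613 (52.1%) in the knock-in response. Being called in one line and not in the other does not show that the responses differ. The precision of a single gene was moderate: the 95% interval of the difference had a median half-width of 0.68 on the log2 scale and lay wholly within a 2-fold difference in either direction for 7813 genes (47.3%). For these genes a difference beyond 2-fold lies outside the interval. For the rest the interval reaches beyond 2-fold, and for some it lies wholly beyond it. Where it spans the 2-fold limit, the size cannot be told at this replication. The intervals are not adjusted for the number of genes tested. A looser description uses the 16 ways to take 1 library from each group: the difference had the same sign in all 16 for 1722 genes on the higher side (10.4%) and 2087 on the lower side (12.6%).

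Over the genes that rose after treatment, called induced here, the size of the difference between the lines depended on the untreated wild-type libraries. The 1622 genes that rose at least 2-fold in the mean of both responses had a median log2 response of 1.11 in the wild-type and 1.44 in the knock-in line. Their median difference was 0.36, beside 0.013 over all tested genes, and 1245 of them lay above 0. The 1917 genes that fell at least 2-fold had median responses of −1.16 and −1.36 and a median difference of −0.21. On these measures both the rise and the fall were larger in the knock-in line. The 2 sets also differed in base composition. Their median transcript GC content was 58.1% for the genes that rose and 41.3% for those that fell, called repressed here, beside 49.3% over all tested genes. Without untreated wild-type library 1 the same genes had medians of 0.094 and −0.011, without its replicate 0.55 and −0.45, and after removal of a per-library GC and length trend 0.093 and −0.022. When libraries were scaled to their ERCC spike-ins instead, the median of all genes moved to 0.28, that of the induced genes to 0.65 and that of the repressed genes to 0.028, or 0.37 and −0.25 relative to all genes. The level of these genes in each library shows the same point. Relative to their mean over all libraries, the induced genes had a median of −0.24 and −0.68 in the 2 untreated wild-type libraries and of −0.71 and −0.99 in the untreated knock-in libraries, but of 0.73 and 0.65 in treated wild-type and 0.65 and 0.60 in treated knock-in libraries. The treated groups thus overlapped, and untreated wild-type library 1 stood apart from its own replicate by more than that replicate stood from knock-in library 1. The part of the GC content of that library in the difference was not tested beyond these refits.

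**Figure D1:**
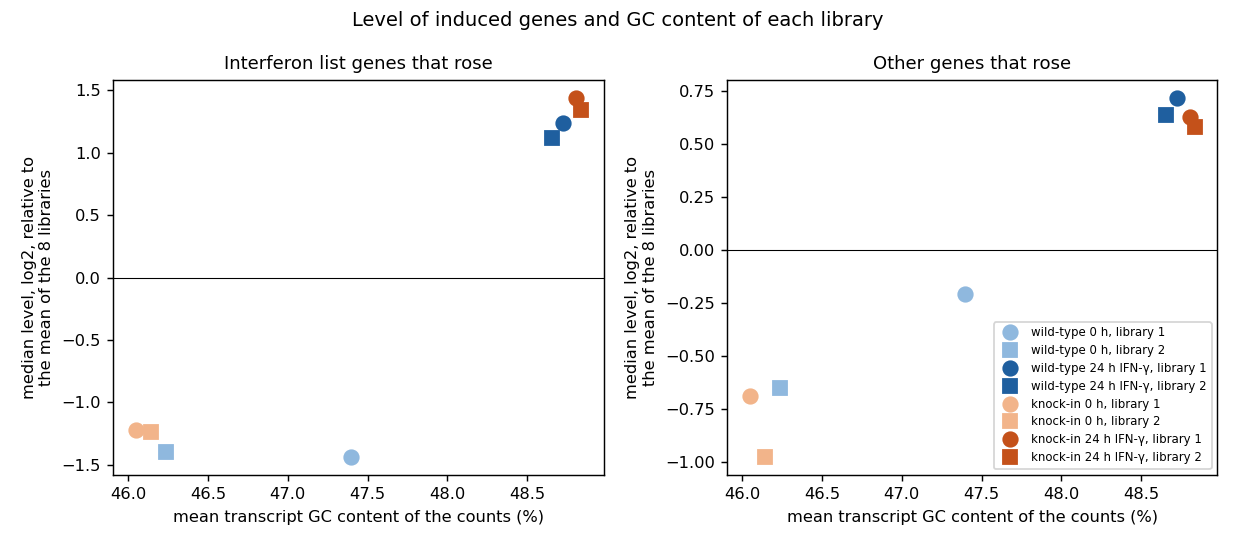
Median level of induced genes in each of the 8 libraries (log2, relative to the mean of all libraries) against the mean transcript GC content of its counts (%), for 115 interferon list genes (left) and 1507 other genes (right) that rose at least 2-fold in the mean response; colours mark groups and symbols the library number. Untreated wild-type library 1 lies at 47.4% GC and above the other untreated libraries in the right panel, and at −1.44, the lowest level, in the left panel.

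The interferon genes themselves centred near a difference of 0. From 18 lists of genes of the pathway, 228 of 261 members were tested. Of these, 133 rose in the wild-type line (background 17.1%), 144 in the knock-in line (26.4%) and 126 in both. Of all 16519 tested genes 2478 rose in both lines, which is the background for such counts in the lists below. Their median difference was 0.066, with 124 above 0 and 104 below, and none was called. At an unadjusted p under 0.05 there were 14 higher and 16 lower members, 13.2% of 228, beside 6.77% of all tested genes. The difference had the same sign in all 16 library combinations for 32 higher and 36 lower of the 228 members, beside 10.4% and 12.6% of all tested genes. In 102 members (44.7%) the 95% interval lay within 2-fold, a share near the 47.3% of all genes. The 115 members that rose at least 2-fold in the mean response had a median response of 2.62 in both lines and a median difference of 0.12, or −0.046 without untreated wild-type library 1 and 0.20 without library 2. In contrast to the other induced genes, their median level in that library, −1.44, was close to the −1.40 of its replicate. Of the 228, 17 had fewer than 6 counts in a group, and their fitted differences depend on the prior count; the median of the other 211 was 0.073.

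**Figure D2:**
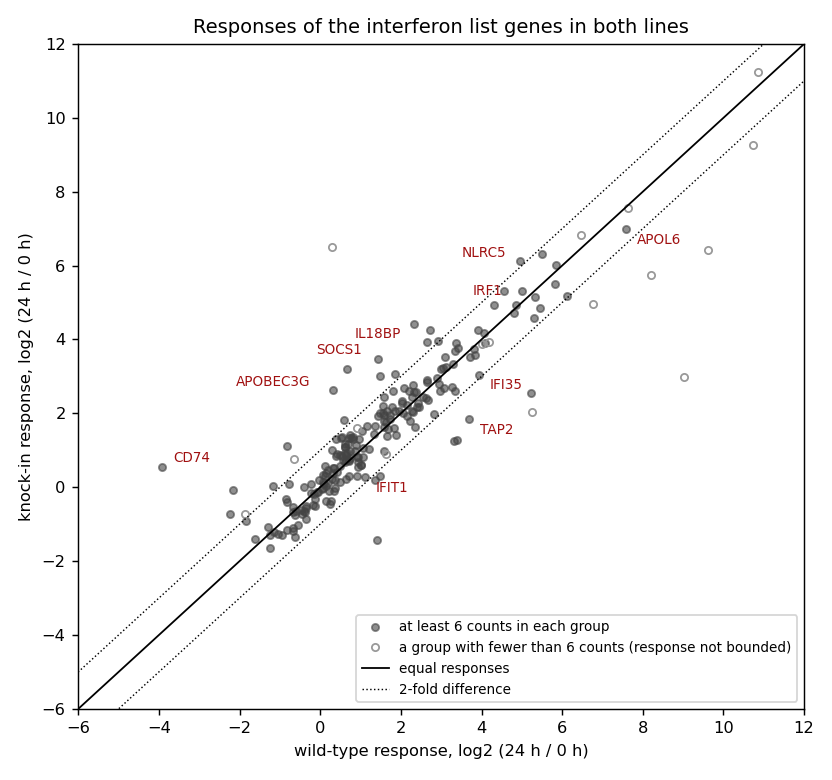
Knock-in response (vertical) against wild-type response (horizontal), both log2 of 24 h over 0 h, for interferon list genes (228 tested). Genes beyond the axes, among them HLA-DQB1 with a wild-type response of −7.27, are not shown. Open points have fewer than 6 counts in a group, and dotted lines mark a 2-fold difference. The points follow the line of equal responses, with CD74 far above it and TAP2 below it.

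Of the 23 lists plotted by list, 11 had a median below 0, and all 11 lay above 0 under spike-in scaling, which moved the median of all genes to 0.28. With each of the 8 libraries left out in turn, 13 of the 23 medians changed sign at least once, so a list median near 0 carries no direction. Across these 228 genes the 2 responses, which share no library, had a Pearson r of 0.868 and a Spearman rho of 0.904, against 0.515 and 0.757 over all tested genes. The points are genes and not independent replicates, and high and low genes share the depth of the same libraries. The responses had a SD of 2.31 in the wild-type and 2.05 in the knock-in line over the 228 genes.

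The receptor and JAK-STAT list had 14 tested genes with a median difference of 0.18. JAK1 (chr1:64833229-64966504, GRCh38, minus strand), the kinase bound to IFNGR1, measured 68.8 and 71.1 CPM in untreated and 79.2 and 87.97 CPM in treated wild-type libraries, against 76.3 and 78.4 CPM in untreated and 61.3 and 58.7 CPM in treated knock-in libraries. The untreated knock-in libraries lay above and the treated ones below their wild-type counterparts, with no overlap on either side. The response was 0.26 ± 0.12 (SE) in wild-type cells, where it was not called, and −0.37 ± 0.12 in knock-in cells, where it was. The difference was −0.62 ± 0.17 with a 95% interval of −1.01 to −0.23, an unadjusted p under 0.05 and an adjusted p of 0.688 in edgeR, and without untreated wild-type library 1 it was −0.59. That adjusted p, 0.688, was shared by the genes below given with a SE, unless another is stated, because the adjustment ties genes of neighbouring rank. The receptor chains gave differences of −0.061 for IFNGR1, which fell in both lines, and 0.27 for IFNGR2, and the kinase JAK2 gave −0.15. STAT2 and STAT3, with responses of 1.95 and 2.03 in wild-type cells, gave differences of 0.11 and 0.24.

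Of 17 negative regulators of the pathway, 1 had an unadjusted p under 0.05. SOCS1, an inhibitor of JAK kinases that the pathway itself induces, measured 0.965 and 1.25 CPM in untreated and 3.66 and 2.33 CPM in treated wild-type libraries, against 0.446 and 0.164 CPM in untreated and 3.88 and 2.75 CPM in treated knock-in libraries. At these low levels the knock-in libraries without treatment lay below the wild-type ones and the treated groups overlapped; the difference was 2.04 ± 0.77, with an interval of 0.31 to 3.77. The next largest members, PIAS4 and SOCS4, gave 0.68 ± 0.33 and −0.51 ± 0.24, and these values shrank to 0.36 and −0.28 without untreated wild-type library 1. The median of the list was −0.035.

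The next list holds interferon regulatory factors, induced transcription factors and proteins grouped with them. Of its 18 tested members, 13 rose in both lines and 3 had an unadjusted p under 0.05 for the difference, all lower. IRF1 (chr5:132481609-132490798, minus strand), the first factor of the cascade, measured 13.6 and 10.3 CPM in untreated and 337 and 361 CPM in treated wild-type libraries, against 11.3 and 11.4 CPM in untreated and 352 and 336 CPM in treated knock-in libraries. The untreated and the treated libraries each overlapped between the lines, and the difference was 0.056 ± 0.21, with an interval of −0.42 to 0.53 and an adjusted p of 0.947; a 2-fold difference in either direction lies outside it. IRF9, the DNA-binding partner of STAT2, gave −0.27 ± 0.27 (adjusted p 0.768), though its counts are identical to those of another gene ID. The 3 lower members were IFI35, ETV7 and IRF7. IFI35 (chr17:43006725-43014456, plus strand), an interferon-induced leucine zipper protein, measured 5.01 and 5.26 CPM in untreated and 74.8 and 83.03 CPM in treated wild-type libraries, against 10.8 and 11.8 CPM in untreated and 89.9 and 96.5 CPM in treated knock-in libraries. It rose in both lines, by 3.94 ± 0.15 and 3.04 ± 0.15, and ended higher in the treated knock-in libraries; since its untreated level there was also higher, the difference was −0.90 ± 0.20. ETV7, an ETS repressor, measured 0.598 and 0.601 CPM before and 44.1 and 40.2 CPM after treatment in the wild-type line, and 1.06 and 1.44 CPM before and 48.4 and 43.4 CPM after it in the knock-in line, a difference of −0.95 ± 0.32. IRF7 gave −2.10 ± 0.90, with 10.9 and 2.33 CPM in the 2 treated wild-type libraries. BATF2, NMI and SP110 gave 0.19, 0.20 and −0.13, and the median of the list was 0.03.

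The promoters of 4 genes are shown because they carry the elements through which the cascade acts and belong to genes with a difference near 0 (IRF1), below 0 (IFI35 and IFIT1) and above 0 (PSMB10). Each line gives the 150 bases before the start of the gene, 5′ to 3′ on the strand of the gene, from RefSeq on GRCh38.p14, with the matched element in capitals. IRF1 (chr5:132490774-132490923, minus strand) and IFI35 (chr17:43006634-43006783, plus strand) show a GAS, starting 124 and 22 bases before the start; PSMB10 (chr16:67936851-67937000, minus strand) shows an ISRE at 21 bases; IFIT1 (chr10:89392473-89392622, plus strand) shows 2 ISRE, at 116 and 103 bases.
IRF1: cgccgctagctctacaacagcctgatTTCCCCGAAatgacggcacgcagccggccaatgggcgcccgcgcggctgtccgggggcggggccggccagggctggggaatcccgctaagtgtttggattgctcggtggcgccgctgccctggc
IFI35: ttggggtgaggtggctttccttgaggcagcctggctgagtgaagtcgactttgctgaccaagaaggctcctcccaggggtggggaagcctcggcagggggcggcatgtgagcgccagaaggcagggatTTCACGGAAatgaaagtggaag
PSMB10: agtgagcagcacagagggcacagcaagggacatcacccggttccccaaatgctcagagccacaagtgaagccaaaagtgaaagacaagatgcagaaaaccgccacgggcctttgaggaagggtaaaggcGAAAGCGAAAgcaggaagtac
IFIT1: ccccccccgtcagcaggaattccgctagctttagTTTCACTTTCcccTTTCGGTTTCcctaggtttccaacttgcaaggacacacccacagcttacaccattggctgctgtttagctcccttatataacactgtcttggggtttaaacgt
The GAS was searched as TTCNNNGAA and the ISRE as GAAA, any 2 bases and GAAA again, on both strands (TTTC, any 2 bases and TTTC on the other), in a window from 250 bases before to 50 after each start. Of 35116 promoters in the table, 7.66% held a GAS and 3.57% an ISRE. Among the 115 interferon list genes that rose at least 2-fold, 78 had a promoter in the table, and 30.8% of these held a GAS and 55.1% an ISRE. The median difference of responses was −0.11 for those with a GAS and 0.15 for those without, and −0.19 for those with an ISRE and 0.24 for those without. The same split of 902 other induced genes with a promoter gave 0.31 and 0.40 for the GAS and 0.29 and 0.40 for the ISRE. A match is a description of letters and not a binding site, and the splits were not tested.

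Antigen presentation genes had differences on both sides of 0. Of the 7 tested genes of the MHC class I list, 5 rose in both lines. HLA-B, a class I heavy chain, measured 20.7 and 16.8 CPM in untreated and 59.4 and 52.5 CPM in treated wild-type libraries, against 14.1 and 17.1 CPM in untreated and 49.7 and 47.2 CPM in treated knock-in libraries, with a difference of 0.059 ± 0.24 and an interval of −0.47 to 0.59 (adjusted p 0.9499). HLA-C and HLA-E gave 0.36 and 0.19, and B2M, the light chain of class I, −0.39 ± 0.27 (adjusted p 0.697). Reads of class I genes are shared among near-identical copies, so their split is uncertain. NLRC5 (chr16:56989485-57083531, plus strand), the transactivator of class I genes, measured 6.896 and 4.36 CPM in untreated and 181 and 166 CPM in treated wild-type libraries, against 2.45 and 2.17 CPM in untreated and 160.01 and 161 CPM in treated knock-in libraries. The knock-in libraries lay below the wild-type ones at both points, and further below without treatment. The response was 4.94 ± 0.21 in wild-type and 6.12 ± 0.23 in knock-in cells and the difference 1.18 ± 0.29, with an interval of 0.52 to 1.84, or 0.82 without untreated wild-type library 1.

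The peptide supply genes had a median difference of −0.19, and 11 of 13 tested rose in both lines. The median turned to 0.054 without untreated knock-in library 2 and was −0.35 without untreated knock-in library 1. TAP1, a subunit of the peptide transporter, measured 17.5 and 9.97 CPM in untreated and 202 and 213 CPM in treated wild-type libraries, against 7.41 and 10.9 CPM in untreated and 179 and 178 CPM in treated knock-in libraries, with a difference of 0.36 ± 0.35 (adjusted p 0.762) that was −0.10 without untreated wild-type library 1. Its partner TAP2 measured 4.37 and 4.26 CPM before and 80.95 and 31.3 CPM after treatment in the wild-type line, and 10.9 and 5.21 CPM before and 31.4 and 25.3 CPM after it in the knock-in line. The treated wild-type libraries of TAP2 stood far apart, and its difference of −1.87 ± 0.63 had an interval of −3.28 to −0.45. PSMB10 (chr16:67934502-67937087, minus strand), a catalytic subunit of the immunoproteasome, measured 36.4 and 33.8 CPM in untreated and 120.02 and 124 CPM in treated wild-type libraries, against 20.9 and 25.4 CPM in untreated and 139.7 and 145 CPM in treated knock-in libraries. It started lower and ended higher in the knock-in line, with no overlap at either point. Its responses were 1.80 ± 0.14 and 2.62 ± 0.14 and the difference 0.82 ± 0.19, or 0.46 with the GC and length trend removed.

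The MHC class II list had the largest median of the interferon lists, 1.18 over 10 tested members, all above 0. This median was 0.59 without treated and 2.71 without untreated knock-in library 2, and 1.02 over the 6 members with at least 6 counts in every group. Of the 10, CD74, CTSS, HLA-DQA1 and HLA-DQB1 were higher in each of the 4 libraries with the plasma cell signal than in any without it. CD74, the invariant chain of class II, measured 25.97 and 34.2 CPM in untreated and 1.602 and 2.37 CPM in treated wild-type libraries, against 0.111 and 24.6 CPM in untreated and 4.98 and 31.7 CPM in treated knock-in libraries. The 4 libraries at 24.6 to 34.2 CPM are the 4 that carried plasma cell markers; in the pair of knock-in libraries numbered 1, without that signal, CD74 was 0.11 CPM before and 4.98 CPM after treatment. The difference of 4.46 ± 1.82 therefore contrasts groups that differ in that signal, whose part in it was not tested. CIITA, the class II transactivator, measured 1.84 and 4.61 CPM before and 11.1 and 9.31 CPM after treatment in the wild-type line, and 2.34 and 3.04 CPM before and 10.99 and 11.4 CPM after it in the knock-in line; it rose in both lines, with a difference of 0.39 ± 0.52 (adjusted p 0.829). LGMN, a lysosomal protease, measured 35.7 and 22.8 CPM before and 45.97 and 39.5 CPM after treatment in the wild-type line, and 22.004 and 28.6 CPM before and 64.9 and 66.2 CPM after it in the knock-in line and gave 0.83 ± 0.31.

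**Figure D3:**
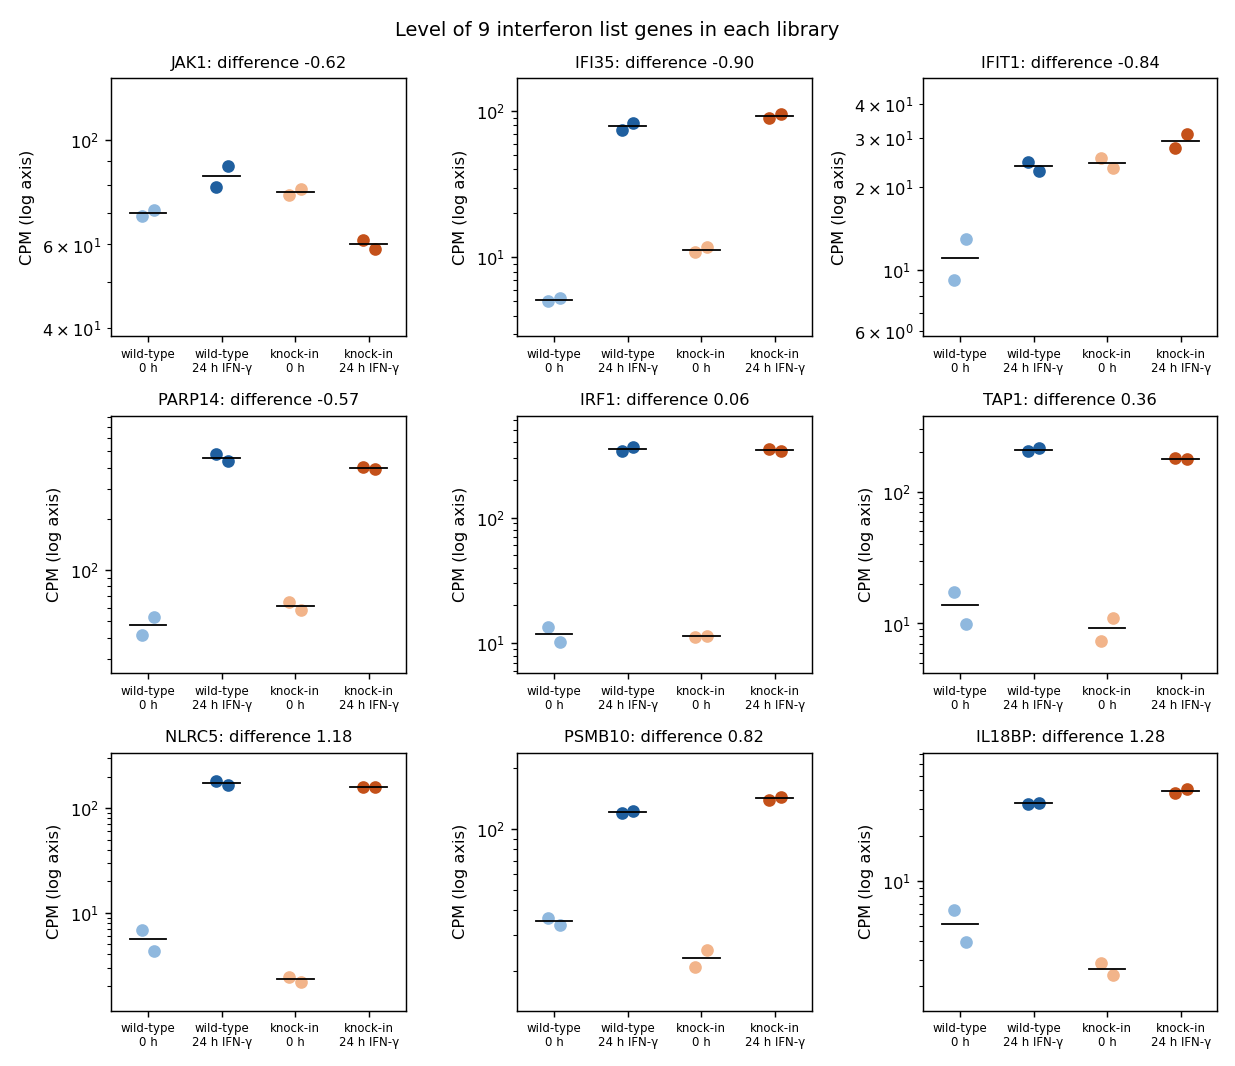
CPM (log axes, one per gene) of 9 interferon list genes in each of the 8 libraries, with a bar at the mean of the 2 libraries of a group; the difference of responses (log2) stands above each panel. JAK1, IFI35, IFIT1 and PARP14 start higher in the knock-in line, IRF1 is level in both, and NLRC5, PSMB10 and IL18BP start lower in the knock-in line.

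Of the GTPases and apolipoproteins, which attack vacuoles and membranes of intracellular pathogens, 6 of 9 tested GTPases and 4 of 5 tested apolipoproteins rose in both lines. GBP1 went from 0 and 2 counts to 2351 and 2225 counts in wild-type and from 4 and 3 to 2957 and 2559 in knock-in libraries, too few at the start for a difference of responses. GBP2 measured 0.368 and 0.551 CPM before and 17.1 and 19.5 CPM after treatment in the wild-type line, and 0.7799 and 0.944 CPM before and 22.7 and 19.3 CPM after it in the knock-in line, with a difference of −0.72 ± 0.38. GBP3 and GBP4 gave 0.26 and 0.10. GBP5, the 1 member with an unadjusted p under 0.05, measured 0.04597 and 0.0501 CPM before and 1.79 and 2.25 CPM after treatment in the wild-type line, and 0.501 and 0.492 CPM before and 2.16 and 1.91 CPM after it in the knock-in line. With 1 count in each untreated wild-type library, its fitted difference of −3.22 ± 0.87 depends on the prior count. The median of 9 tested members was −0.02, but −0.56 when untreated wild-type library 2 was left out and 0.13 when untreated knock-in library 1 was. APOL6 measured 1.84 and 2.71 CPM in untreated and 424 and 443 CPM in treated wild-type libraries, against 3.23 and 3.45 CPM in untreated and 427 and 424 CPM in treated knock-in libraries. The treated groups of APOL6 overlapped and the untreated knock-in libraries lay above the wild-type ones, a difference of −0.59 ± 0.25, or −0.32 without untreated wild-type library 1. Its relative APOL1 gave 0.81 ± 0.37. The 5 tested apolipoproteins had median responses of 5.51 and 6.32 and a median difference of −0.07, or −0.30 without untreated knock-in library 2 and 0.13 without untreated knock-in library 1.

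Among antiviral effectors, IFIT1, which binds foreign RNA caps, measured 9.15 and 12.98 CPM in untreated and 24.6 and 22.7 CPM in treated wild-type libraries, against 25.5 and 23.4 CPM in untreated and 27.7 and 30.96 CPM in treated knock-in libraries. Its untreated knock-in level overlapped the treated wild-type level. The wild-type response was 1.10 ± 0.19 and called, and the knock-in response was 0.26 ± 0.19 and not called; the difference was −0.84 ± 0.27, with an interval of −1.44 to −0.23. IFIT3, induced by 5.82 and 5.49, gave −0.33 ± 0.30 (adjusted p 0.747), and IFITM3 gave −0.014. The 7 tested members of the family had a median of −0.05.

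The OAS, MX and related list, 29 tested members, had 4 higher and 3 lower at an unadjusted p under 0.05 and a median of 0.12, which turned to −0.067 without untreated wild-type library 2 and below 0 without treated knock-in library 2. On the higher side, APOBEC3G, a cytidine deaminase that restricts retroviruses, measured 2.67 and 1.202 CPM in untreated and 2.17 and 2.69 CPM in treated wild-type libraries, against 1.003 and 2.17 CPM in untreated and 8.901 and 11.2 CPM in treated knock-in libraries. It was called in the knock-in response and not in the wild-type one, and its difference of 2.31 ± 0.65 had an interval of 0.85 to 3.78. BST2, the tether that holds virions at the cell surface, measured 1.38 and 2.25 CPM before and 13.4 and 14.2 CPM after treatment in the wild-type line, and 1.504 and 2.42 CPM before and 33.2 and 28.5 CPM after it in the knock-in line, a difference of 1.03 ± 0.40. SAMHD1, a dNTP hydrolase, gave 0.47 ± 0.17, and OAS2, which makes oligoadenylate, 2.53 ± 0.94, with a largest group mean of 3.88 CPM. MX1, whose unadjusted p was above 0.05, gave 0.83 ± 0.45. On the lower side, IFI6 measured 4.32 and 3.21 CPM before and 43.2 and 33.6 CPM after treatment in the wild-type line, and 10.4 and 10.5 CPM before and 63.96 and 64.3 CPM after it in the knock-in line and gave −0.73 ± 0.27. IFI27 gave −2.67 ± 0.82, from a wild-type start of 0.14 and 0.15 CPM, and EIF2AK2, the RNA-activated kinase PKR, −0.42 ± 0.16, or −0.11 with the GC and length trend removed.

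The smaller effector families had medians between −0.18 and 0.33. In the ISG15 conjugation list the E3 ligase TRIM25 measured 127 and 103 CPM in untreated and 320.2 and 322 CPM in treated wild-type libraries, against 68.1 and 55.8 CPM in untreated and 261 and 240.1 CPM in treated knock-in libraries, with a difference of 0.53 ± 0.21, while the median of 7 members was −0.18, or 0.0056 without untreated knock-in library 2. In nucleic acid sensing, 15 members had a median of 0.33 that was 0.081 without untreated wild-type library 1, 0.0998 without untreated knock-in library 1 and −0.10 without treated knock-in library 2. Of these, DDX60L gave −0.70 ± 0.23 and DHX58 1.51 ± 1.07 (adjusted p 0.699); the latter turned to −1.17 without untreated wild-type library 1. The PARP family had a median of −0.15 over 10 members. PARP14, a mono-ADP-ribosyltransferase, measured 41.7 and 53.01 CPM in untreated and 479 and 438 CPM in treated wild-type libraries, against 64.6 and 58.2 CPM in untreated and 406 and 392 CPM in treated knock-in libraries. Its untreated level was higher and its treated level lower in the knock-in line, with no overlap, and the difference was −0.57 ± 0.20. None of the 10 tested TRIM family members had an unadjusted p under 0.05, and their median was −0.11, or 0.024 without treated wild-type library 1; TRIM69 gave −0.60 ± 0.44 (adjusted p 0.705) and TRIM6 −0.50 ± 0.30.

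**Figure D4:**
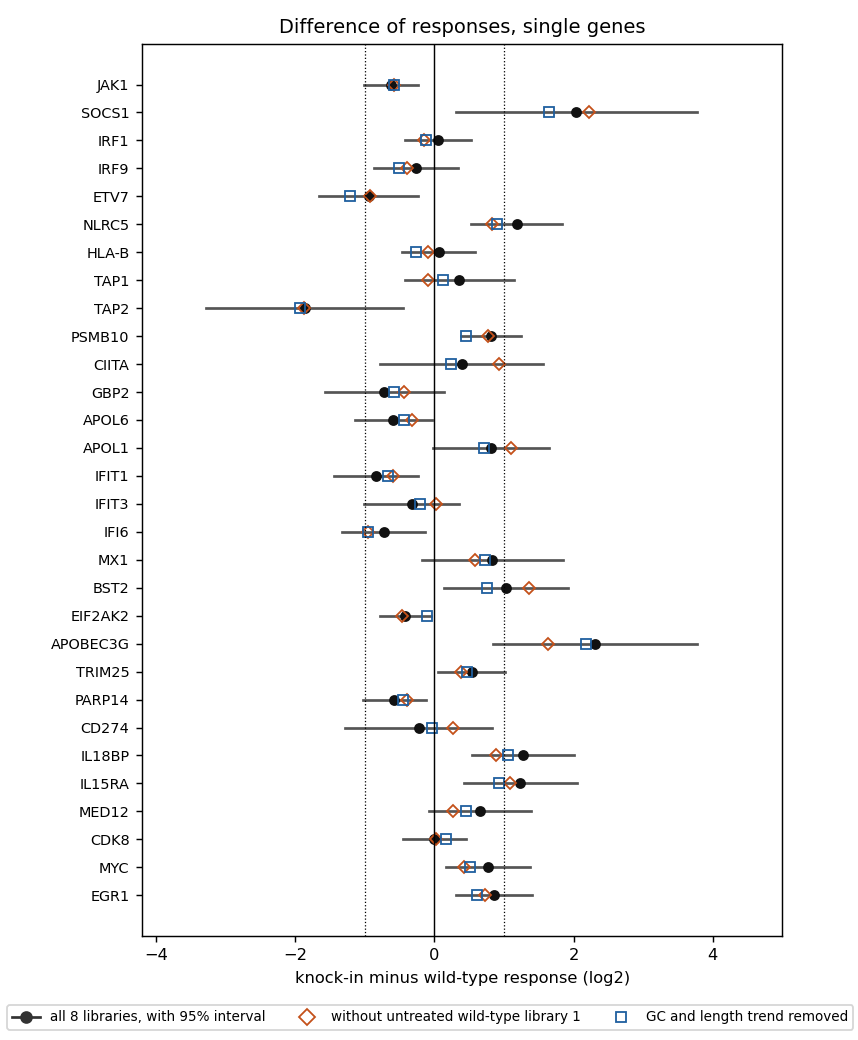
Difference of responses (log2, knock-in minus wild-type) of 30 genes: filled points with 95% intervals from all 8 libraries, diamonds without untreated wild-type library 1, squares with the GC and length trend removed; dotted lines mark 2-fold. The intervals of IRF1, HLA-B and CDK8 lie within 2-fold, while those of JAK1, NLRC5 and IL18BP exclude 0 before adjustment.

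Of 14 tested chemokines, cytokines and adhesion genes, 11 lay above 0, with a median of 0.50 that was 0.38 without untreated wild-type library 1; 3 had an unadjusted p under 0.05, all higher. IL18BP, the decoy for IL-18, measured 6.44 and 3.91 CPM in untreated and 32.7 and 32.7 CPM in treated wild-type libraries, against 2.84 and 2.38 CPM in untreated and 38.4 and 41.1 CPM in treated knock-in libraries. It rose in both lines, by 2.65 ± 0.23 and 3.93 ± 0.25, from a lower start and to a higher end in the knock-in line, a difference of 1.28 ± 0.33 with an interval of 0.54 to 2.01. IL15RA, which presents IL-15, measured 5.38 and 4.36 CPM before and 16.6 and 18.3 CPM after treatment in the wild-type line, and 1.28 and 2.26 CPM before and 15.3 and 15.1 CPM after it in the knock-in line and gave 1.23 ± 0.36. LIF, a cytokine that signals through STAT3, measured 79.8 and 53.8 CPM before and 84.04 and 79.5 CPM after treatment in the wild-type line, and 36.7 and 30.98 CPM before and 68.6 and 68.1 CPM after it in the knock-in line and gave 0.72 ± 0.26. IL15 itself gave −0.45 and ICAM1, an adhesion receptor for leukocytes, 0.43.

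Among checkpoint and tryptophan catabolism genes none of 11 had an unadjusted p under 0.05. CD274, which encodes PD-L1, measured 2.44 and 5.46 CPM in untreated and 19.3 and 22.2 CPM in treated wild-type libraries, against 5.01 and 3.36 CPM in untreated and 19.4 and 18.2 CPM in treated knock-in libraries, and both groups overlapped between lines, with a difference of −0.22 ± 0.47 (adjusted p 0.898). IDO1, which degrades tryptophan, was at 0 counts in all 4 untreated libraries and at 247 and 256 counts in treated wild-type and 350 and 328 in treated knock-in libraries. With a floor of 3 counts per library it was at least 68.95-fold higher after treatment in wild-type and at least 89.3-fold in knock-in cells, so no difference can be given. PVR, a ligand of TIGIT, gave 0.50 ± 0.26. The list median was 0.24, but −0.044 without untreated knock-in library 2 and 0.0029 over the 9 members with at least 6 counts in every group.

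The 20 tested caspases and death receptors had a median of 0.10 and none under an unadjusted p of 0.05; TNFRSF1A gave 0.56 ± 0.29, and CASP1, at 0 counts in the untreated wild-type libraries, rose in both lines. Of 12 complement genes, 9 lay below 0 with a median of −0.21, or −0.49 without untreated wild-type library 2. SERPING1, the C1 inhibitor, had 0 and 0 counts in untreated and 68 and 72 in treated wild-type libraries, against 13 and 17 and then 160 and 134 in knock-in libraries. This is at least 19.2-fold in the wild-type line, with the same floor, and 7.88-fold in the knock-in line.

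**Figure D5:**
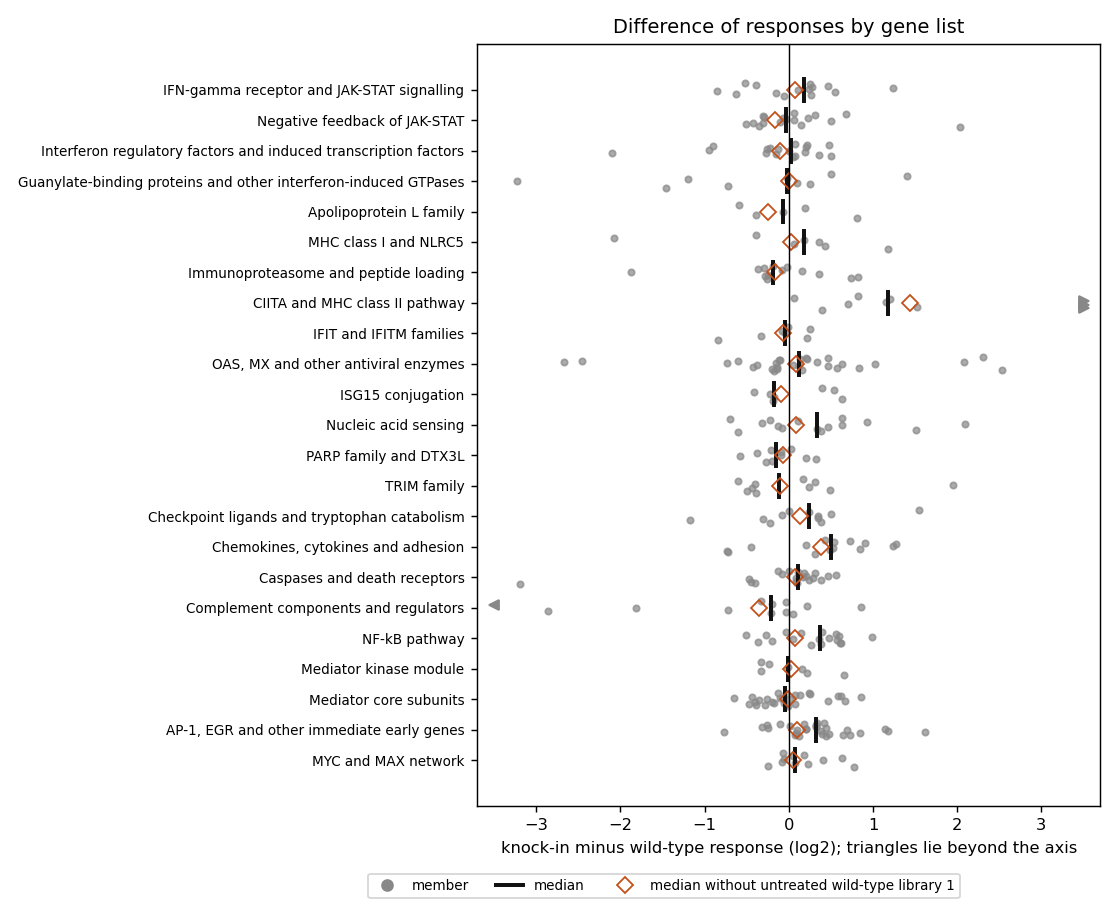
Difference of responses (log2) of the tested members of 23 gene lists, with the median of each list (bar) and its median without untreated wild-type library 1 (diamond). The medians lie between −0.21 and 0.50, except that of the MHC class II list at 1.18.

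Of the 7 tested genes of the Mediator kinase module, none had an unadjusted p under 0.05. The counts cannot show the E33Q base change, so they do not check the genotype. MED12 (chrX:71118556-71142454, plus strand) measured 23.1 and 14.2 CPM in untreated and 34.3 and 28.3 CPM in treated wild-type libraries, against 12.9 and 11.2 CPM in untreated and 33.3 and 30.1 CPM in treated knock-in libraries. It rose in both lines, by 0.75 ± 0.23 and 1.40 ± 0.24, and both groups of treated libraries overlapped; the difference was 0.65 ± 0.33 with an interval of −0.084 to 1.39, and 0.27 without untreated wild-type library 1. CDK8, the kinase of the module, measured 48.96 and 50.6 CPM in untreated and 45.9 and 45.6 CPM in treated wild-type libraries, against 42.2 and 35.04 CPM in untreated and 33.7 and 36.9 CPM in treated knock-in libraries, a difference of −0.0058 ± 0.20 with an interval of −0.46 to 0.45 (adjusted p 0.998). Its paralog CDK19 gave −0.23 ± 0.24 (adjusted p 0.7797), and CCNC, which encodes cyclin C and fell in both lines, −0.33 ± 0.21 (adjusted p 0.694). MED13 and MED13L, which tie the module to core Mediator, gave −0.32 ± 0.19 and 0.15 ± 0.19 (adjusted p 0.8105 for the latter). Of 7 tested module genes 6 had an interval within 2-fold, and the median was −0.0058. The 26 core subunits had a median of −0.043, with 2 higher and 1 lower at an unadjusted p under 0.05. The higher ones were MED22, with counts identical to those of another gene ID, at 0.86 ± 0.35, and the tail subunit MED24 at 0.62 ± 0.26, or 0.30 without untreated wild-type library 1; the lower one was MED21 at −0.65 ± 0.29, or −0.39 without that library. MED16, another tail subunit, gave 0.67 ± 0.37 with an unadjusted p above 0.05.

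Several lists of growth and early response genes had medians above 0 that shrank without untreated wild-type library 1: from 0.37 to 0.079 for 18 NF-kB genes, from 0.32 to 0.10 for 30 immediate early genes and from 0.37 to 0.099 for 15 Wnt targets. Without untreated wild-type library 2 the NF-kB and immediate early genes were at 0.59 and 0.50, and without untreated knock-in library 1 the Wnt targets were at 0.70. MYC, the growth regulator, measured 316 and 202 CPM in untreated and 404 and 400.2 CPM in treated wild-type libraries, against 92.5 and 105 CPM in untreated and 260.3 and 264 CPM in treated knock-in libraries. Its untreated level was lower in the knock-in line, with no overlap, and it rose in both lines, by 0.63 ± 0.19 and 1.41 ± 0.19; the difference was 0.77 ± 0.27, or 0.43 without that library. EGR1, an early growth response factor, measured 20.3 and 17.03 CPM before and 29.6 and 27.8 CPM after treatment in the wild-type line, and 7.52 and 6.32 CPM before and 19.6 and 18.7 CPM after it in the knock-in line, with a difference of 0.85 ± 0.24, or 0.73 without it. AXIN2, a Wnt feedback gene, and CDKN1A, the p21 cell cycle inhibitor, gave 0.16 ± 0.24 (adjusted p 0.847) and 0.27 ± 0.18 (adjusted p 0.697). RELB and TNFAIP3 of the NF-kB list gave 0.62 ± 0.49 and 0.99 ± 0.68, with adjusted p of 0.718 and 0.697.

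The following genes were chosen after their values were seen, as those with the smallest unadjusted p outside the lists, and are given as a description. SEMA3A, a secreted guidance cue, measured 24.7 and 30.8 CPM in untreated and 21.5 and 19.1 CPM in treated wild-type libraries, against 499 and 414 CPM in untreated and 174 and 168 CPM in treated knock-in libraries. It was far higher in the knock-in line and fell in both, with responses of −0.45 ± 0.16 and −1.42 ± 0.15 and a difference of −0.97 ± 0.22. TIPARP, an aryl hydrocarbon receptor target, gave −0.98 ± 0.23, and ABCB1, a drug efflux pump, −1.08 ± 0.25, from 18.9 and 19.2 CPM in untreated knock-in libraries to 6.92 and 7.02 CPM after treatment. On the higher side, HSH2D, a signalling adaptor, measured 14.1 and 11.1 CPM before and 27.2 and 26.6 CPM after treatment in the wild-type line, and 6.96 and 6.65 CPM before and 31.8 and 28.9 CPM after it in the knock-in line, a difference of 1.07 ± 0.24. VIM, which encodes vimentin, gave 2.69 ± 0.54 and was 1 of the 4 genes that DESeq2 called (adjusted p 0.0017). It measured 24.8 and 30.2 CPM in untreated and 4.46 and 3.22 CPM in treated wild-type libraries, against 21.9 and 40.5 CPM in untreated and 18.3 and 38.2 CPM in treated knock-in libraries. The 4 libraries with plasma cell markers held its 4 highest levels, and the part of that signal was not tested. The other 3 were AC008878.3, at 0 counts in 2 groups, and 2 IDs without a name in the annotation used here. Of these, ENSG00000276726 measured 50.02 and 46.3 CPM before and 46.4 and 50.2 CPM after treatment in wild-type and 29.02 and 27.8 CPM before and 59.97 and 61.2 CPM after it in knock-in libraries. Its difference was 1.09 ± 0.18, with an adjusted p of 0.688 in edgeR and 0.0055 in DESeq2.

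Of all 16519 tested genes, 61.0% lay further apart between the lines without IFN-γ than with it, 62.1% of those with a higher and 59.8% of those with a lower knock-in response. Of the 533 genes with a lower knock-in response at an unadjusted p under 0.05, 380 (71.3%) had a larger line difference without than with IFN-γ, and of the 586 higher ones 380 (64.8%). Among interferon list genes this held for 147 of 228 tested, and for 13 of 16 lower and 7 of 14 higher members at an unadjusted p under 0.05. The line differences share their libraries with the difference of responses and are given beside it as its parts only.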

How the data were processed

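The deposited table holds the authors' estimated counts per Ensembl gene ID. Per the submitters' processing notes, reads were processed with Trimmomatic and kallisto on GRCh38; their versions, the annotation and the step from transcripts to genes are not given in the labels or headers. Of the nonzero values 58.1% were not whole (tolerance 1e-06), and all were rounded for the tests. The 63 ERCC spike-in rows were left out. GENCODE release 29 (GRCh38) named 35583 of 40295 IDs; promoters came from RefSeq (GRCh38.p14).

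Genes were kept by filterByExpr (minimum count 10), libraries scaled by TMM (factors 0.860 to 1.134), and 1 model with the 4 groups fitted in edgeR 4.0.16 (R 4.3.3, limma 3.58.1), by the quasi-likelihood F test with Benjamini-Hochberg adjustment over 16519 genes at 0.05. The common dispersion was 0.0415, a coefficient of variation of 20.4%. SE is the log2 value over the square root of F, and 95% intervals use the t distribution with 9.34 degrees of freedom. P-values measure the spread between the 2 libraries of a group. No library pair agreed within counting noise. The scripts were tested on simulated data.

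The comparison and the 35 gene lists (605 genes) were chosen with earlier results of these data known, so list counts and medians carry no test. Named genes were the 15 largest called differences in each direction (none was called), the 2 members of each pathway or Mediator list with the largest difference among those reaching 5 CPM in a group, and a fixed set (MED12, MED13, MED13L, CDK8, CDK19, CCNC, IRF1, IRF9, SOCS1, CIITA, CD74, IDO1, CD274, GBP1, TAP1, HLA-B, IFIT1, MX1, MYC, EGR1, CDKN1A and AXIN2, and 1 gene that is not reported here). Other genes, among them list members given to describe their list or for an unadjusted p under 0.05, were chosen after their values were seen.

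Alternatives were DESeq2 size factors, upper-quartile and spike-in scaling, DESeq2 1.42.0, limma-voom, no filter, at least 50 counts in 2 libraries, the replicate number as a block (overall or within each line), a GC and length offset (loess, span 0.3; GC content known for 92.4% of tested genes), that offset with the block, exclusion of mitochondrial, histone and immunoglobulin genes, each library left out in turn, and both knock-in libraries numbered 2 left out.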

Additional observations from a re-analysis of the deposited data

How the results depend on the processing

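No gene was called under the other scalings, limma-voom, the stricter filter, the GC and length offset or the exclusion of gene classes. DESeq2 called 4 genes, 4 of them higher. Without a filter edgeR called 267 (189 higher, 78 lower), all tested in the filtered set too, as its total degrees of freedom went from 9.34 to 96416. With each library left out in turn, 0 to 2 genes were called (0 to 2 higher, 0 to 2 lower). The 2 lower calls came without untreated wild-type library 2, where 28.3% of genes had an unadjusted p under 0.05, and the 2 higher ones without treated wild-type library 1. Without both knock-in libraries numbered 2, there were 5 (4 higher, 1 lower): CD74, SDC1, JCHAIN and SMN2, and AC139530.2. In that fit only the untreated wild-type libraries still carried the plasma cell signal, and JCHAIN and CD74 were highest in them. The part of that signal in these calls was not tested. The replicate number as a block gave 0 calls, also with the GC offset. Deviations of same-numbered libraries correlated at −0.0019 to 0.0738 between groups, except 0.270 for the 2 knock-in groups. In that line both libraries numbered 2 carried the plasma cell signal and both numbered 1 lacked it. The labels do not say what the numbers mark, so the main fit did not pair the samples. As a block within each line the numbers gave 27 calls (25 higher, 2 lower). Of these, 20 were over 3 times higher in each library with the plasma cell signal than in any without, as were 112 of all tested genes. When induced and repressed genes were chosen anew, leaving out 1 library gave medians from 0.064 (without untreated wild-type library 1) to 0.60 (without untreated knock-in library 1) for induced genes and from −0.42 (without untreated wild-type library 2) to −0.0093 (without untreated wild-type library 1) for repressed ones, and spike-in scaling turned the latter from −0.21 to 0.054; these causes were not tested. Of 86 named genes under 21 alternatives, 1745 values kept their direction and stayed uncalled, 35 uncalled ones changed sign and 25 passed the threshold, 21 of these without a filter. The interval lay within 2-fold for 47.3% of tested genes; the libraries of a group differed by 7.17 to 46.7 times the counting noise (chi-square per degree of freedom), so depth alone does not set this precision.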

Other observations

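Outside the interferon pathway, 22 tested genes of glycolysis and hypoxia had a median difference of 0.28, with 19 above 0 and 5 at an unadjusted p under 0.05, all higher (3.55% of all tested genes were). Without untreated wild-type library 1 this median was 0.22, where those of the early response and Wnt lists fell to 0.10 or less. With the GC and length trend removed it was 0.20, near the 0.21 of the Wnt targets. The NF-kB and immediate early genes were then at 0.11 and 0.068. The 5 genes, named after their values were seen, were HK2, which phosphorylates glucose, with 0.90, NDRG1 with 0.73, PFKP, a phosphofructokinase, with 0.64, SLC2A3, a glucose transporter, with 0.59, and EGLN3, an oxygen sensor, with 1.03. Other members gave values near 0, among them LDHA with 0.0053, ENO1 with −0.013 and GAPDH with −0.10. No member passed the adjusted threshold.

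The 38 ribosomal protein mRNAs were the tightest list. Their median response was −1.16 in wild-type and −1.10 in knock-in cells, 34 and 35 of them fell, the median difference was 0.076 (−0.083 to 0.196 with each library left out in turn), and all 38 intervals lay within 2-fold. Genes of the cell cycle and DNA replication (34, median −0.005), p53 targets (24, median 0.046), cholesterol and fatty acid synthesis (23, median 0.035) and the unfolded protein and integrated stress response (20, median 0.037) also centred near 0, with 27, 18, 18 and 15 intervals within 2-fold. Of 11 mitochondrially encoded mRNAs 10 lay above 0, with a median of 0.25 that was 0.12 without untreated wild-type library 1, 0.75 without untreated knock-in library 2 and −0.13 without untreated knock-in library 1. Among 11 tested colon epithelial markers the median was 0.12, or −0.19 without untreated wild-type library 1 and 0.38 without library 2, and none had an unadjusted p under 0.05.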
